A study of Mus musculus with 10 samples.

Results

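The B cell cytokine genes examined number 8: Tnf, Lta and Ltb of the tumour necrosis factor family, Il10, Tgfb1, Il6, and the interleukin-12 family subunits Ebi3 and Il12a. They were taken by name, and all 8 were found among the 17658 genes of the table and passed the minimum mean of 1 FPKM, which left 10225 genes for testing. RNA came from B cells of C57BL/6 mice aged 10 weeks, purified from spleen and lymph node by magnetic removal of other cells. The mice were wild type (Nr4a1+/+) or carried the Nr4a1-/- genotype, a loss of the orphan nuclear receptor NUR77, per the labels. Each genotype gave 1 unstimulated library (letter A) and 4 libraries (A to D) of cells exposed for 2 hours to 10 µg/mL anti-IgM, which engages the B cell antigen receptor by crosslinking surface IgM. The labels do not say whether letters are separate mice, so p-values measure the spread between libraries, which may be technical. Levels are in FPKM, fragments scaled to transcript length and to the total of the library, so that levels of different genes can be compared.

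B cells are best known for antibody, but they also act through cytokines. TNF and the lymphotoxins are related trimeric ligands: TNF and secreted lymphotoxin-alpha signal through TNF receptors, and lymphotoxin-alpha held at the membrane by lymphotoxin-beta signals through the lymphotoxin-beta receptor, a route by which B cells organise lymphoid follicles. IL-10 and TGF-beta restrain immune responses and IL-10 defines one class of regulatory B cells, whereas IL-6 from B cells promotes T cell help and inflammation. Ebi3 pairs with the Il12a product to form IL-35 and with the Il27 product to form IL-27, and the Il12a product pairs with that of Il12b to form IL-12.

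The transcript named by the genotype could not serve as a check of the labels. Without stimulation Nr4a1 read 126.43 FPKM (wild type) and 125.58 FPKM (labelled knockout). After anti-IgM its range was 744.23 to 856.1 FPKM for wild type, overlapping the 660.23 to 759.96 FPKM of the libraries labelled knockout. The genotype of the latter therefore rests on their labels alone, and each direction given here compares libraries by label. Summed FPKM ran from 557214 to 571784 with stimulation and was 674961 (wild type) and 595500 (labelled knockout) without it. The B cell receptor gene Cd79a averaged 485.4 ± 15.8 FPKM (SD, n = 4) in stimulated wild-type and 504.4 ± 26.2 FPKM in stimulated knockout-labelled libraries. Its partner Cd79b was lower in the latter, at 379.5 ± 10.7 and 304.0 ± 14.9 FPKM (log2 difference -0.32, limma adjusted p = 0.00054). It was the 1 of 6 listed B cell genes with an adjusted p under 0.05 between stimulated genotypes. The T cell receptor genes Cd3e, Cd3d and Cd3g stayed at or below 0.33 FPKM and Cd4 and Cd8a at or below 0.53 FPKM. Tcra, the T cell receptor alpha gene, read 0.39 (wild type) and 0.17 FPKM (labelled knockout) unstimulated. With anti-IgM it averaged 1.32 FPKM in each genotype and reached 1.95 FPKM. In this bulk RNA, fewer cells of a type and less RNA per cell cannot be told apart.

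Lta, Tnf and Ltb are neighbours on chromosome 17. In GRCm38 coordinates from GENCODE M21, Ltb lies at chr17:35194439-35196320 on the plus strand, Tnf at chr17:35199381-35202007 on the minus strand and Lta at chr17:35203165-35205351 on the minus strand, all within 10.91 kb. The gap is 3060 bases between Ltb and Tnf and 1157 bases between Tnf and Lta. The other members lie apart: Ebi3 at chr17:55952640-55957022, Il10 at chr1:131019845-131024974, Tgfb1 at chr7:25687002-25705077, Il6 at chr5:30013114-30019981 and Il12a at chr3:68690644-68698547, all on the plus strand.

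The bases before the transcription start are shown for the 3 clustered genes, since adjacent genes behaved differently, and for Tgfb1, the most abundant member after anti-IgM. They come from RefSeq (GRCm38.p6), which matched 7 of the 8 genes (all but Il10), run 5′ to 3′ on the strand of the gene, and span chr17:35202008-35202257 (Tnf, minus strand), chr17:35205352-35205601 (Lta, minus strand), chr17:35194257-35194438 (Ltb, plus strand) and chr7:25686752-25687001 (Tgfb1, plus strand). For Ltb, whose RefSeq start lies inside the GENCODE gene, 68 bases that GENCODE places in an exon are left out. Capitals mark matches to an NF-kB consensus or an EGR motif.
Tnf: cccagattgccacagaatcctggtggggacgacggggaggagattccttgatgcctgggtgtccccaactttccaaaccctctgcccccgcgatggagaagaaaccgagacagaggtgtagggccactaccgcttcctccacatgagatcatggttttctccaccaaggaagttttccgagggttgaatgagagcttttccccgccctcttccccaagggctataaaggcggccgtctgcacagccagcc
Lta: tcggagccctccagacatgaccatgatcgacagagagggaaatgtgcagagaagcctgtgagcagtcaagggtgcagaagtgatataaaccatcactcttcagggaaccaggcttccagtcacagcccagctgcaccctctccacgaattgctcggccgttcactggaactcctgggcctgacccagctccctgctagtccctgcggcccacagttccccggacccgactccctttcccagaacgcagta
Ltb: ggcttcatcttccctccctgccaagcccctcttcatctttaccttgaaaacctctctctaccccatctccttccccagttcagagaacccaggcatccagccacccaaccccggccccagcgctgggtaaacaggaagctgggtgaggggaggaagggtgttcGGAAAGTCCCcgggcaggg
Tgfb1: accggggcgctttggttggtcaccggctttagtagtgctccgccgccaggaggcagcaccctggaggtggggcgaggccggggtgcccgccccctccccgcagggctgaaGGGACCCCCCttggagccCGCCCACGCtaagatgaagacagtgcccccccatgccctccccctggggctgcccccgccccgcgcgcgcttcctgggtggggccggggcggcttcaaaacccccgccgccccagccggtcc
In all, 5 motifs were searched on both strands of the 250 bases before each start: the NF-kB consensus, AP-1 (TGANTCA), CRE (TGACGTCA), the NBRE bound by the Nr4a receptors (AAAGGTCA) and EGR (GCGNGGGCG). Ltb held the NF-kB match GGAAAGTCCC at 87 to 78 bases before its RefSeq start. Tgfb1 held the NF-kB match GGGACCCCCC at 140 to 131 bases and the EGR match CGCCCACGC at 122 to 114 bases before its start. Il6 held the NF-kB match GGGATTTTCC at 44 to 35 bases and the AP-1 match TGAGTCA at 249 to 243 bases. Ebi3 held the NF-kB match GGGGCTTCCC at 44 to 35 bases. No motif was matched in this window of Tnf, Lta or either start of Il12a, and none of the 7 genes searched held a CRE or NBRE match. Il10, without a promoter entry, was not searched. None of these matches overlapped another. Of all 32851 promoters, 7.25% held the NF-kB consensus, 6.75% AP-1, 1.55% CRE, 1.34% NBRE and 4.70% EGR, so single matches are common and describe letters, not bound sites.

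In unstimulated B cells Ltb was the most abundant member and Tgfb1 the next in each genotype. Ltb read 227.71 FPKM (wild type) and 237.29 FPKM (labelled knockout), against 74.06 and 130.17 FPKM for Tgfb1. The order changed after anti-IgM. In stimulated wild-type libraries it was Tgfb1 (161.6 ± 5.02 FPKM, SD, n = 4), Ltb (47.4 ± 3.07), Tnf (32.5 ± 4.37) and Lta (8.24 ± 0.369), with no overlap between neighbours. Below them Ebi3 (6.17 ± 0.755), Il12a (4.76 ± 1.05), Il10 (3.15 ± 0.981) and Il6 (2.16 ± 1.58 FPKM) each overlapped the next. In the stimulated libraries labelled knockout Tnf (46.5 ± 5.02 FPKM) and Ltb (46.5 ± 0.978) shared the second place with overlapping ranges, below Tgfb1 (178.8 ± 9.96) and above Lta (12.3 ± 1.08). Ebi3 (7.19 ± 0.602), Il10 (5.74 ± 1.35) and Il12a (4.22 ± 0.390) followed with overlapping neighbours, and Il6 (1.77 ± 0.988 FPKM) was lowest.

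**Figure D1:**
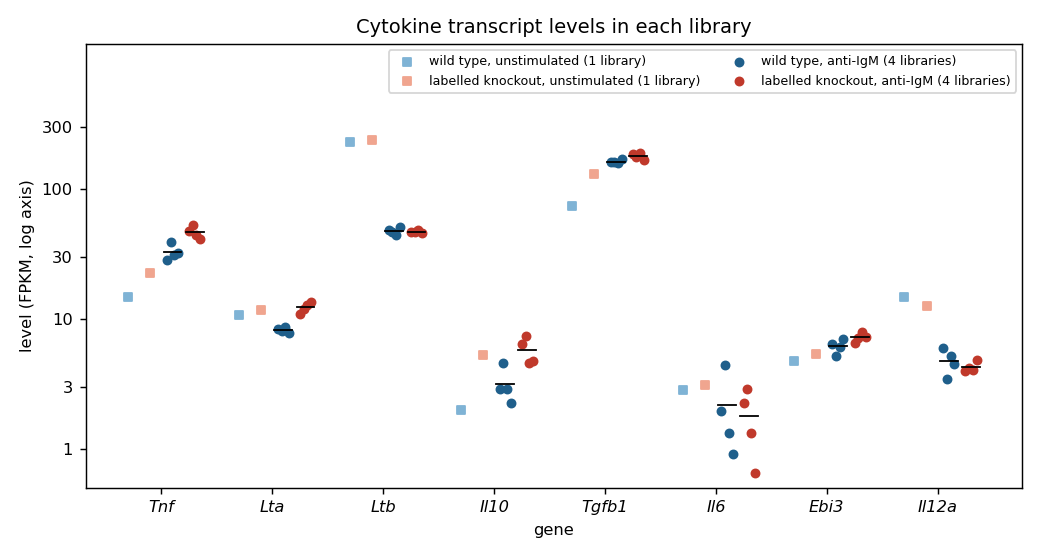
Level of each of the 8 cytokine genes in FPKM (vertical log axis) in the 10 libraries, by genotype and stimulation; each point is 1 library and black lines mark the mean of 4 stimulated libraries. Tnf and Lta separate the stimulated genotypes completely, with Lta at 7.81 to 8.66 FPKM for wild type against 10.93 to 13.38 FPKM for the libraries labelled knockout.

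The genotype comparison asked which transcripts, induced by anti-IgM or not, differ between B cells of the 2 genotypes after antigen receptor stimulation. The 8 stimulated libraries were fitted with limma on log2(FPKM + 1), and calls were made where the p adjusted over all 10225 genes (Benjamini-Hochberg) was under 0.05. Of the 8 cytokine genes 3, namely Tnf, Lta and Il10, were called higher in the libraries labelled knockout, against 3.91% of all genes tested. None of the 8 was called lower by limma, against 5.81% of all genes, and none had an unadjusted p under 0.05 in that direction. The members were chosen with earlier results of these data known. Counts of members called, here and with anti-IgM, therefore cannot test whether they change more often than other genes. The median change of the 8 was 0.17 on the log2 scale and that of all genes -0.02. Tnf and Lta were also the 2 members whose 4 knockout-labelled libraries all lay above the 4 wild-type ones, which 5.96% of all genes did. Median-of-ratios scaling moved the split of calls over all genes from 400 higher and 594 lower to 559 and 377, and quantile normalization to 478 and 439, while Tnf, Lta and Il10 stayed called higher under both.

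The second comparison asked what 2 hours of anti-IgM did. The limma fit used all 10 libraries and a genotype term, and calls needed both a log2 change of 1 or more in either direction and an adjusted p below 0.05. Tnf alone of the 8 was called higher, where 7.94% of all genes were, and Ltb and Il12a were called lower, where 12.4% of all genes were. The median change was 0.06 for the 8 and -0.17 for all genes on the log2 scale of deposited values. The median over all genes was -0.03 on the TPM scale, 0.0042 with quantile normalization and 0.03 under median-of-ratios scaling, so changes near 0 depend on the scale. The split of calls over all genes moved as well, from 812 higher and 1266 lower to 1102 and 1071 with TPM, 1159 and 805 with median-of-ratios scaling and 985 and 917 with quantile normalization.

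**Figure D2:**
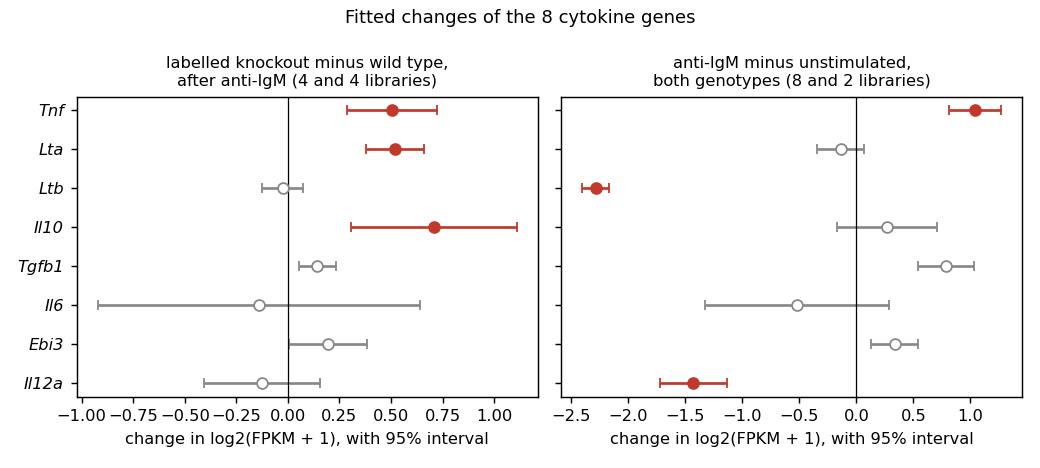
Fitted log2 changes of the 8 cytokine genes (horizontal axes, log2(FPKM + 1) scale) between stimulated genotypes, labelled knockout minus wild type, and with anti-IgM; points are estimates, bars 95% confidence intervals, and filled points are called. The genotype intervals of Tnf (0.29 to 0.72), Lta (0.38 to 0.66) and Il10 (0.31 to 1.11) lie above 0, and Ltb has the largest change with anti-IgM (-2.29).

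Tnf, which encodes the inflammatory ligand TNF, rose with anti-IgM and was higher in the libraries labelled knockout. In wild type it read 14.79 FPKM unstimulated and 28.51, 38.71, 30.85 and 32.06 FPKM stimulated (A to D). In the libraries labelled knockout the values were 22.59 FPKM unstimulated and 47.58, 52.98, 44.1 and 41.32 FPKM stimulated. Every stimulated library labelled knockout lay above every stimulated wild-type library, and both unstimulated libraries lay below all stimulated ones. The genotype difference was 0.51 on the log2 scale (SE 0.097, adjusted p = 0.0103, 1.43-fold between mean FPKM). The change with anti-IgM was 1.04 (SE 0.105, adjusted p = 3.11e-06), 2.2-fold in wild type and 2.06-fold in the libraries labelled knockout. That change lies at the required size of 1, and it was 0.967 without both stimulated B libraries and 0.999 without wild-type library B alone, each of which ended the call. The unstimulated pair differed 1.53-fold in the same direction, without a test, since each is 1 library.

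Lta, the gene of lymphotoxin-alpha next to Tnf, differed between the stimulated genotypes by about as much but was not called for anti-IgM. In wild type its level was 10.65 FPKM unstimulated and 8.39, 8.08, 8.66 and 7.81 FPKM stimulated. In the libraries labelled knockout it was 11.69 FPKM without stimulation and 10.93, 11.9, 12.85 and 13.38 FPKM with it. The stimulated wild-type libraries thus all lay below the wild-type unstimulated one, whereas the stimulated libraries labelled knockout lay on both sides of theirs. The genotype difference was 0.52 (SE 0.062, adjusted p = 0.000708, 1.49-fold). The common change with anti-IgM was -0.14 (95% confidence interval -0.34 to 0.07, adjusted p = 0.191), and its sign depended on the scale, with 0.01 under TPM, 0.08 under median-of-ratios scaling and 0.11 under quantile normalization. The genotype calls of Tnf and Lta held in all 21 alternatives, with adjusted p between 0.000641 and 0.0465 for Tnf and between 0.000166 and 0.0100 for Lta. T cells also make lymphotoxin, and the summed level of 8 T cell markers was 53.21 to 57.43 FPKM in stimulated wild type and 74.68 to 77.58 FPKM in the libraries labelled knockout. Most of that sum was Lck (46.6 ± 1.96 and 65.3 ± 1.07 FPKM), a kinase also known in some B cells, and both Lck (0.48, adjusted p = 3.15e-05) and Cd5 (7.17 ± 0.608 and 8.66 ± 0.334 FPKM, 0.24, adjusted p = 0.0336) were called higher. Cd3e stayed at or below 0.1 FPKM and was at 0 in 3 libraries. Stimulated means, wild type first, fell for Cd3d (0.1475 and 0.095 FPKM), Cd3g (0.185 and 0.105) and Cd8a (0.3525 and 0.2425). They rose for Cd3e (0.0275 and 0.0525 FPKM) and Cd4 (0.1225 and 0.1875), all below the minimum mean and not fitted. Tcra averaged 1.32 ± 0.284 and 1.32 ± 0.523 FPKM in the stimulated groups and was not called between them (-0.02, adjusted p = 0.965). The part of these transcripts or of T cells in the Lta difference was not tested.

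Ltb, the membrane partner of lymphotoxin-alpha, behaved differently from its neighbours. It fell from 227.71 FPKM to 48.01, 46.58, 43.78 and 51.15 FPKM among wild-type libraries and from 237.29 FPKM to 46.34, 46.28, 47.84 and 45.5 FPKM in the libraries labelled knockout. All 8 stimulated libraries thus fell within 43.78 to 51.15 FPKM. The change with anti-IgM was -2.29 (SE 0.052, adjusted p = 4.82e-11), with unstimulated levels 4.81-fold above the stimulated mean in wild type and 5.10-fold above it in the libraries labelled knockout. Between stimulated genotypes the difference was -0.02 with a 95% confidence interval of -0.12 to 0.07 (adjusted p = 0.796). That interval reaches neither the difference of Tnf nor that of Lta. The B cell identity genes Cd79a, Cd79b, Ms4a1, Pax5 and Cd22 were also called lower with anti-IgM, with changes of -1.24 for Cd79a and -2.13 for Cd79b on the log2 scale, and whether the fall of Ltb has a source in common with theirs was not tested.

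**Figure D3:**
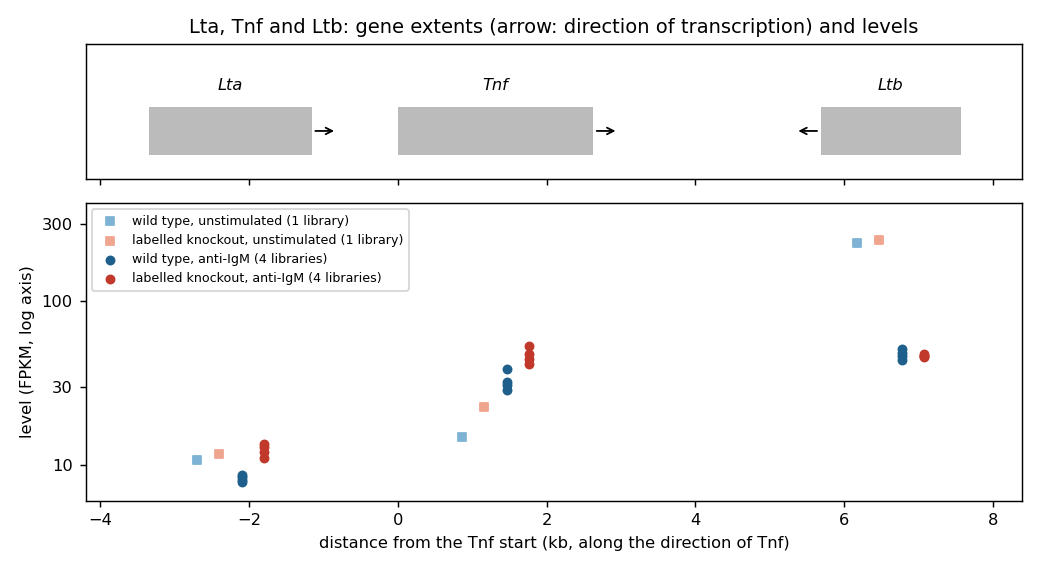
Map of the Ltb, Tnf and Lta genes with distance in kb from the start of Tnf (horizontal axis, in the direction of Tnf, arrows give the direction of transcription), with the level of each gene in FPKM (vertical log axis) by group; points are libraries, drawn near the middle of each gene. Across 10.91 kb, Tnf and Lta are higher in the stimulated libraries labelled knockout while Ltb lies between 43.78 and 51.15 FPKM in all 8.

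Il10, the defining cytokine of one kind of regulatory B cell, was low and higher in the libraries labelled knockout. It read 1.97 FPKM unstimulated and 2.9, 4.54, 2.9 and 2.24 FPKM stimulated in wild type, against 5.27 FPKM unstimulated and 6.34, 7.35, 4.54 and 4.72 FPKM stimulated in the libraries labelled knockout. The groups met at 4.54 FPKM, the value of wild-type library B and of knockout-labelled library C. The difference was 0.71 (SE 0.179, adjusted p = 0.0369, 1.82-fold), and the unstimulated pair differed 2.68-fold in the same direction. This call was less stable than those of Tnf and Lta, since it held in 12 of 20 alternatives, with a change between 0.40 and 0.86 and an adjusted p between 0.00196 and 0.116. It was lost without wild-type library A, C or D or without knockout-labelled library A or B (adjusted p 0.0878, 0.0873, 0.0980, 0.0980 and 0.0782). With anti-IgM the change was 0.27 (95% confidence interval -0.17 to 0.70, adjusted p = 0.231), which was not called. That change was 0.08 without the unstimulated wild-type library and 0.45 without the unstimulated library labelled knockout. It had an adjusted p under 0.05 with median-of-ratios scaling (0.45, 0.0475), quantile normalization (0.68, 0.00600) and the myeloid marker level as a covariate (0.55, 0.00479), in each case under the required size, and was 0.14 without both B libraries.

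Tgfb1, the gene of the immunosuppressive cytokine TGF-beta1, was abundant, above 95.5% of tested genes by mean level. Wild-type libraries read 74.06 FPKM unstimulated and 159.81, 160.23, 157.46 and 168.9 FPKM stimulated, and those labelled knockout 130.17 FPKM unstimulated and 185.14, 174.45, 188.6 and 166.86 FPKM stimulated. The unstimulated pair lay 1.76-fold apart, while the stimulated groups overlapped. The genotype difference after anti-IgM was 0.14 (SE 0.041, adjusted p = 0.0594) and was not called. It was called in 4 of 21 alternatives, among them median-of-ratios scaling (0.19, adjusted p = 0.0346) and without knockout-labelled library D (0.18, adjusted p = 0.0214). The change with anti-IgM was 0.78 (SE 0.112, adjusted p = 5.76e-05), below the size required for a call. Under median-of-ratios scaling that change was 1.02, and it was 1.11 without the unstimulated library labelled knockout, both past that size. It was 0.56 under quantile normalization and 0.45 without the unstimulated wild-type library, with adjusted p of 0.00133 and 0.000128.

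Whether the response to anti-IgM differed between genotypes was tested in a limma fit of the 4 groups, in which the lone unstimulated libraries are assumed to vary like the stimulated ones. Tgfb1 was the 1 of 8 cytokine genes called in this fit, where 18.9% of all genes were. Its mean level was 2.18-fold above the unstimulated library in wild type and 1.37-fold above it in the libraries labelled knockout, a difference of -0.66 on the log2 scale (SE 0.091, adjusted p = 0.00287). The differences over all genes leaned the same way, with a median of -0.10. Under TPM that median was -0.26, against -0.84 for Tgfb1, and under quantile normalization it was -0.01, against -0.71 for Tgfb1. The Tgfb1 difference rests on 1 unstimulated library per genotype. That of Lta was 0.40 (95% confidence interval 0.08 to 0.71, adjusted p = 0.0778), and the call was made without knockout-labelled library A (0.45, adjusted p = 0.0327). The differences of the other members were Tnf -0.07, Ltb -0.08, Il10 -0.37, Il6 -0.23, Ebi3 0.05 and Il12a 0.10, with adjusted p from 0.568 to 0.882.

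**Figure D4:**
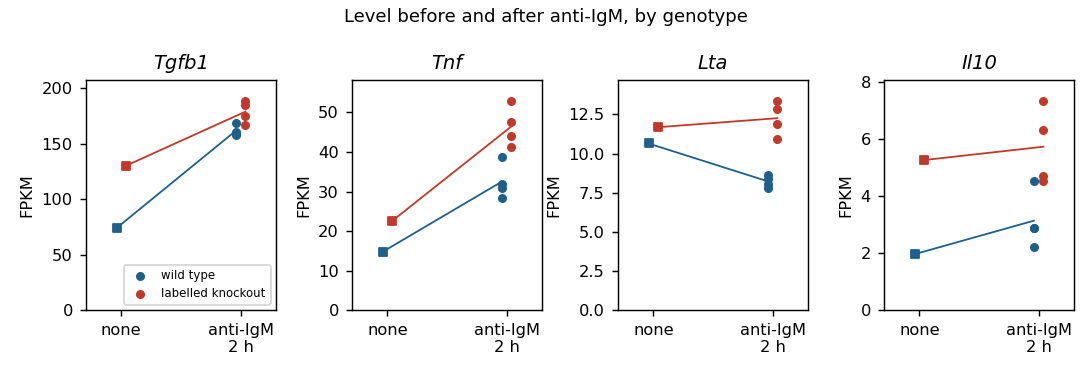
Level of Tgfb1, Tnf, Lta and Il10 in FPKM (vertical axes from 0) before and after anti-IgM for each genotype, with a square for the 1 unstimulated library, circles for the 4 stimulated libraries, and lines from the unstimulated value to the stimulated mean. The lines of Tgfb1 run from 74.06 and 130.17 FPKM towards 161.6 and 178.8 FPKM, and those of Lta part from 10.65 and 11.69 FPKM to 8.24 and 12.3 FPKM.

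Il6, an inflammatory cytokine, varied more between libraries than between groups. It read 2.84 FPKM unstimulated and 1.95, 4.44, 1.32 and 0.91 FPKM stimulated in wild type, and 3.09 FPKM unstimulated and 2.25, 2.88, 1.31 and 0.65 FPKM stimulated in the libraries labelled knockout. The order of letters was B, A, C, D in both genotypes and the stimulated values spread 6.83-fold. The genotype difference was -0.14 (95% confidence interval -0.92 to 0.64, adjusted p = 0.859) and the change with anti-IgM -0.52 (-1.32 to 0.29, adjusted p = 0.210). Neither was called. The genotype interval allows sizeable changes in either direction, and that with anti-IgM reaches much further below 0 than above it.

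Some myeloid marker genes moved with Il6 across libraries and others did not. Lyz2, the lysozyme of macrophages and granulocytes, read 31.91, 114.95, 27.09 and 26.59 FPKM (A to D, stimulated wild type) and 52.96, 82.57, 15.81 and 17.36 FPKM (stimulated, labelled knockout). All 8 listed myeloid markers were tested, and their summed level ran from 47.14 to 150.5 FPKM in stimulated wild type and from 30.15 to 111.98 FPKM in the libraries labelled knockout, with library B highest in each. Lyz2 was the largest term of that sum in every library, and Lyz2, Itgam, Emr1, Cd68 and Cd14 were highest in library B in both genotypes. S100a8 and S100a9, genes of neutrophils, were instead lowest in library B in both genotypes, at 0.56 and 0.6 FPKM in wild type and 0.41 and 0.52 FPKM in the libraries labelled knockout. Csf1r, the macrophage growth factor receptor, was highest in library D in wild type and in library A in those labelled knockout. Il6 in library B was 3.19-fold the mean of the other 3 libraries in wild type and 2.05-fold in the libraries labelled knockout, against 4.03-fold and 2.88-fold for Lyz2. The same ratios were 1.69 and 1.41 for Il10 and 1.27 and 1.2 for Tnf, and lay between 0.66 and 0.99 for the other members. The genotype differences of the 8 markers had limma adjusted p from 0.0962 to 0.911, and their mean log2 level differed by -0.18 (exact permutation p = 0.429, two-sided, 70 labellings, smallest possible p 0.0286). With that level as a covariate the genotype difference of Il10 was 0.86 (adjusted p = 0.00196), and without both B libraries it was 0.75 (adjusted p = 0.0167). Under the same covariate the Il6 change with anti-IgM was 0.0044 (adjusted p = 0.988) in place of -0.52. Without both B libraries it was -0.76 (adjusted p = 0.0166) and without wild-type library B alone -0.67 (adjusted p = 0.0492), so the 2 ways of setting library B or the marker level aside moved it in opposite directions. Beyond these values the part of myeloid RNA in the levels of Il6, Il10 and Tnf was not tested.

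**Figure D5:**
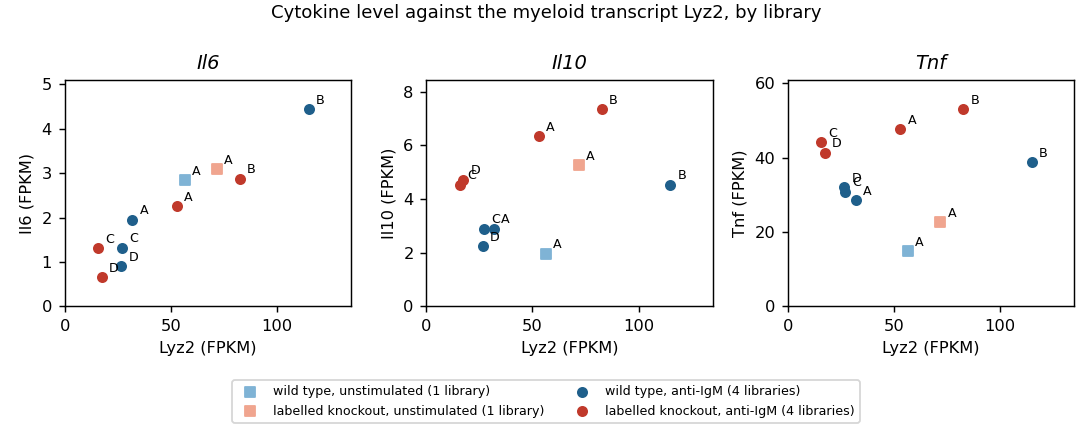
Level of Il6, Il10 and Tnf (vertical axes, FPKM) against Lyz2 (horizontal axes, FPKM), 1 point per library with its letter, marked by genotype and stimulation. The Il6 points climb with Lyz2 up to wild-type library B (4.44 FPKM at a Lyz2 level of 114.95 FPKM), while stimulated Tnf lies higher in the libraries labelled knockout at low and high Lyz2.

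The 2 interleukin-12 family subunits responded differently to anti-IgM. Il12a, the p35 subunit shared by IL-12 and IL-35, fell from 14.82 FPKM to 5.9, 3.43, 5.21 and 4.5 FPKM in wild type and from 12.55 FPKM to 3.93, 4.16, 4.01 and 4.79 FPKM in the libraries labelled knockout. The stimulated groups overlapped and each lay well below its unstimulated library. The change was -1.43 (SE 0.134, adjusted p = 1.69e-06), and the genotype difference -0.13 (95% confidence interval -0.41 to 0.16, adjusted p = 0.625). That difference was -0.03 without wild-type library A and -0.25 without wild-type library B, with adjusted p of 0.921 and 0.181. Ebi3 read 4.76 FPKM unstimulated and 6.4, 5.19, 6.09 and 7 FPKM stimulated in wild type, and 5.36 FPKM and 6.51, 7.07, 7.97 and 7.22 FPKM in the libraries labelled knockout. Each stimulated value exceeded the unstimulated value of its genotype, and the stimulated genotypes overlapped. Its change with anti-IgM was 0.34 (SE 0.093, adjusted p = 0.00609), under the required size, and its genotype difference 0.20 (95% confidence interval 0.01 to 0.38, adjusted p = 0.210). The antisense gene Gm16712 overlaps Ebi3, and it read 0.02 to 0.13 FPKM. The use of strand in counting is not given in the sources used here.

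The partners of these subunits were low. Il12b, the p40 subunit of IL-12, read 4.01 and 3.5 FPKM unstimulated and 3.93 ± 0.794 (wild type) and 3.14 ± 0.378 FPKM (labelled knockout, SD, n = 4) stimulated, and was not called in either comparison. Il27 and Il23a stayed at or below 0.18 and 0.23 FPKM. Of the 13 listed subunits and family relatives of the members, 5 were tested and 1 was called higher between genotypes, where 3.91% of all genes were. That gene was Clcf1, an IL-6 family cytokine, at 40.1 ± 2.91 FPKM in stimulated wild type against 47.8 ± 2.5 FPKM in those labelled knockout (0.25, adjusted p = 0.0205). All 5 stayed under the required size with anti-IgM. Among 23 other cytokine genes 6 were tested, and Il16 (falling by 2.00, adjusted p = 2.05e-10) and Flt3l (falling by 1.13, adjusted p = 2.16e-06) were called lower with anti-IgM, while the genotype differences of the 6 had adjusted p from 0.271 to 0.898. Over all genes 12.4% were called lower with anti-IgM. Il16 encodes a T cell chemoattractant and Flt3l a growth factor of dendritic cells.

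Receptors of the cytokines were examined because B cells can respond to what they secrete. Of 13 receptor genes 8 were tested. Between genotypes 3 were called higher and none lower: Tgfbr2, the ligand-binding TGF-beta receptor, at 126.0 ± 3.82 and 148.2 ± 3.83 FPKM (0.23, adjusted p = 0.000856), Il6ra at 4.89 ± 0.264 and 6.17 ± 0.468 FPKM (0.28, adjusted p = 0.0186), and Il10rb at 47.0 ± 0.981 and 50.8 ± 0.909 FPKM (0.11, adjusted p = 0.0269), wild type first. With anti-IgM, Il10ra, the ligand-binding chain of the IL-10 receptor, fell by 3.14 (adjusted p = 1.54e-10), from 65.55 and 80.48 FPKM to means of 7.43 and 7.30 FPKM. Il27ra fell by 1.09 (adjusted p = 2.07e-07) and Tnfrsf1b, the second TNF receptor, rose by 1.34 (adjusted p = 1.29e-08). Il6st and Tgfbr1 were called in neither comparison. Tnfrsf1a, Ltbr, Tgfbr3, Il12rb1 and Il12rb2 lay below the minimum mean, with Ltbr, the receptor of the lymphotoxin heterotrimer, at or below 0.61 FPKM. The median change of the 8 was 0.06 between genotypes and 0.15 with anti-IgM, against -0.02 and -0.17 for all genes. Over all genes 3.91% were called higher and 5.81% lower between genotypes, and 7.94% and 12.4% with anti-IgM. The gene lists were chosen with earlier results of these data known. Their counts therefore cannot test whether such genes change more often than others.

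Genes that process TNF or activate TGF-beta changed in both directions. Of 13 listed, 8 were tested, with 1 called higher and 3 lower between genotypes. Itgav, the integrin alpha-V chain that helps release TGF-beta from its latent form, was lower at 36.4 ± 2.31 FPKM in stimulated wild type against 12.6 ± 0.775 FPKM in those labelled knockout (-1.45, adjusted p = 1.39e-06). Lrrc32, which tethers latent TGF-beta at the cell surface, was lower at 19.7 ± 2.10 and 13.7 ± 1.04 FPKM (-0.49, adjusted p = 0.00407), and its relative Nrros was lower too (-0.11, adjusted p = 0.0400). Furin, the protease that cleaves the TGF-beta precursor, was higher (0.25, adjusted p = 0.00698). Adam17, the sheddase of membrane TNF, was at 29.8 ± 0.462 and 29.8 ± 1.40 FPKM and was not called. Lrrc32 rose by 2.59 with anti-IgM (adjusted p = 5.74e-10), and Rhbdf2, a partner of ADAM17, fell by 1.07 (adjusted p = 6.25e-07). The median genotype change of the 8 was -0.18, against -0.02 for all genes, of which 3.91% were called higher and 5.81% lower.

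Signal transducers downstream of these cytokines were all detected, 18 of 18. Between genotypes 5 were called higher and 2 lower, against 3.91% and 5.81% of all genes. Smad3, a TGF-beta signal transducer, was higher at 85.4 ± 1.5 and 112.4 ± 3.6 FPKM (0.39, adjusted p = 3.54e-05), and Smad7, the inhibitor of that pathway, at 10.0 ± 0.119 and 12.6 ± 0.689 FPKM (0.30, adjusted p = 0.00219). Stat3, which transmits IL-6 and IL-10 signals, was lower at 108.9 ± 3.06 and 74.1 ± 3.51 FPKM (-0.55, adjusted p = 2.73e-05). With anti-IgM, Smad3 rose by 2.60 (adjusted p = 1.40e-10), the 1 gene of this list called higher.

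Among 24 transcription factors known to bind cytokine genes, all tested, 10 were called higher between genotypes and 1 lower. The largest differences were in Nr4a2 (11.3 ± 0.633 and 20.4 ± 1.63 FPKM, 0.80, adjusted p = 4.58e-05), Batf (55.1 ± 3.07 and 95.2 ± 5.35 FPKM, 0.78, adjusted p = 2.06e-05), Nr4a3 (0.51, adjusted p = 0.000453) and Prdm1 (0.44, adjusted p = 0.0101). Nr4a2 and Nr4a3 are the relatives of Nr4a1, Batf is an AP-1 family factor of lymphocytes, and Prdm1 encodes BLIMP1. The 1 called lower was Nr4a1 itself (-0.20, adjusted p = 0.0432). With anti-IgM 14 were called higher and 1 lower, led by Irf4 (3.11, adjusted p = 1.04e-11), Nr4a3 (2.83, adjusted p = 5.88e-11), Egr2 (2.62, adjusted p = 1.3e-10) and Nr4a1 (2.57, adjusted p = 1.05e-10), while Bcl3 fell by 1.31 (adjusted p = 1.15e-07). The median change of the 24 was 0.19 between genotypes and 1.49 with anti-IgM, against -0.02 and -0.17 for all genes. Of all genes, 3.91% were called higher and 5.81% lower between genotypes, and 7.94% and 12.4% with anti-IgM. The list was chosen with earlier results of these data known, so its counts cannot test whether such factors change more often than other genes.

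All 12 listed genes that bind or degrade cytokine mRNA were tested. Zfp36, which encodes the TNF mRNA decay factor tristetraprolin, was lower at 188.3 ± 3.16 and 162.4 ± 4.76 FPKM (-0.21, adjusted p = 0.000804), and its relative Zfp36l1 was higher (0.17, adjusted p = 0.00104). The other 10 were not called between genotypes. Over all genes 3.91% were called higher and 5.81% lower in that comparison. With anti-IgM, Zc3h12c rose by 1.45 (adjusted p = 4.81e-08), while Arid5a, a stabiliser of Il6 mRNA, fell by 1.44 (adjusted p = 1.16e-07) and Tia1 by 1.3 (adjusted p = 4.62e-08). Of 10 surface markers used for regulatory B cells, 8 were tested, and Cd5 (0.24, adjusted p = 0.0336) and Cd274 (0.17, adjusted p = 0.0120) were called higher between genotypes and none lower. With anti-IgM Cd5 rose by 1.97 (adjusted p = 7.64e-10), Cd274, the gene of PD-L1, by 1.75 (adjusted p = 6.55e-11) and Havcr1, the gene of TIM-1, by 1.04 (adjusted p = 3.22e-06), and Entpd1 fell by 1.05 (adjusted p = 2.12e-06).

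The genes most like each cytokine were found by the root mean square difference between centred log2 profiles over the 10 libraries, among 9264 genes, as a description only. Tgfb1 had the closest match, Junb, an AP-1 factor, at 0.033, with 78.48 and 137.55 FPKM unstimulated (wild type first) and means of 165.7 and 184.0 FPKM stimulated, followed by Arhgdia (0.073) and Rara (0.076). Ltb was most like Tmem71 (0.047), Fam46a (0.078) and Fcrla (0.081). Ebi3 was most like Amigo3 (0.077), Zfp346 (0.084) and Eny2 (0.087), and Lta most like Gimap4 (0.106), Ubald2 (0.127) and Galnt6 (0.129). Il12a had Cyb5 (0.130), Ehd2 (0.131) and Slc48a1 (0.137), and Tnf had Gp49a (0.131), Kifc3 and Ubash3b (both 0.153). Il6 was closest to Clec4d, a myeloid lectin receptor (0.158), Ecm1 (0.175) and Slpi (0.195). Il10 had no close match, with Plaur at 0.275, Slc7a7 at 0.286 and Pmepa1 at 0.289. For comparison, the median difference over all genes searched ran from 0.320 for Ebi3 to 0.862 for Ltb.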

How the data were processed

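Polyadenylated RNA was sequenced with a kit that keeps strand, per the labels' protocols. The authors deposited 1 table of FPKM per gene for 10 libraries, and the submitters' processing notes name STAR 2.4, RSEM 1.2.14 and the build mm10 (GRCm38). FPKM carry no counts, so depth is unknown and no count model was used. Columns were matched to samples by their descriptions. Values were taken as log2(FPKM + 1), which understates changes of low genes, and genes averaging 1 FPKM or more were fitted with limma 3.58.1 (R 4.3.3; eBayes with an intensity trend, two-sided). Benjamini-Hochberg adjustment ran over all 10225 genes. SE and 95% confidence intervals come from these fits. The fit of response by genotype, the myeloid covariate and the fits without both B libraries were added after seeing the data. Older symbols were matched through RefSeq synonyms, and 7 listed genes were not matched (Ncr1, Il20, Il3, Il9, Il17a, Il21, Il22). Of the cell type lists, calls between genotypes, higher and lower, were: T cells 2 and 0 of 3 tested, NK cells 0 and 0 of 1, myeloid cells 0 and 0 of 8, dendritic cells 1 and 1 of 3, plasma cells 1 and 0 of 5, B cells 0 and 1 of 6, marginal zone B cells 1 and 2 of 6. Over all genes the shares called were 3.91% and 5.81%. Named genes were the 8 members, the 3 genes most like each, any receptor of a member and up to 4 called genes with the largest change per list and comparison. Some genes that meet this rule are left out here. The members and lists were chosen with earlier results of these data known. All members passed the minimum, so the exact test planned for members below it was not needed. Alternatives were other pseudocounts, filters, scalings and variance settings, the letter as a block, and leaving out each library. They were followed for the 8 members and for counts over all genes. Calls of other named genes were not checked in them, so small ones may depend on the scale.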

Additional observations from a re-analysis of the deposited data

Results flagged for a closer look

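The difference in response of Tgfb1 to anti-IgM between genotypes was -0.66 on the log2 scale (labelled knockout minus wild type; SE 0.091, limma adjusted p = 0.00287), and it met the criterion that the same contrast differs between 2 groups by a test of the difference. The unstimulated values were 74.06 and 130.17 FPKM and the stimulated means 161.6 and 178.8 FPKM. The difference ran from -0.84 (TPM) to -0.60 (median-of-ratios scaling) in the 14 alternatives run. None of these left out an unstimulated library, so they could not test the unstimulated values on which it rests. Each unstimulated group is 1 library, and 18.9% of all genes were called in the same fit. For the 8 cytokine genes no library stood apart by Dixon's criterion in 16 groups of 4 stimulated libraries. For the 8 myeloid markers 4 of 16 such groups held a library that did, where chance would give about 0.8 (1 group in 20). Stimulated wild-type library B stood above the other 3 for Lyz2 (114.95 FPKM), Cd14 (17.64 FPKM) and Itgam (1.83 FPKM), and knockout-labelled library A for S100a9 (2.06 FPKM). Values without library B stand beside the results on Il6, Il10 and Tnf.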

How the results depend on the processing

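The genotype calls of Tnf and Lta and the fall of Ltb kept their direction and their side of the threshold in every alternative run. The response difference of Tgfb1 kept its direction in the 14 alternatives run for it. None of these left out an unstimulated library, so they could not test the 1 value per genotype on which it rests. The cause of the changes below was not tested, except that leaving out libraries removes samples. Genes called between genotypes numbered 994, 712 to 921 with 1 library left out, and 660 without both B libraries. Genes called with anti-IgM numbered 2078, 2050 to 2130 with 1 library left out, and 1132 with a pseudocount of 5. Genes called for a difference in response numbered 1931, 1534 to 1904 with 1 library left out, and 3630 under TPM. Signs turned for small differences: Ltb between genotypes (0.0177 with median-of-ratios scaling, -0.0613 to 0.0120 with 1 library left out), Il6 between genotypes (0.15 with the myeloid covariate, -0.34 to 0.16 with 1 library left out), Lta with anti-IgM (0.0112 with TPM, 0.0781 with median-of-ratios scaling, 0.112 with quantile normalization, -0.336 to 0.0603 with 1 library left out) and Il6 with anti-IgM (0.0044 with the covariate). In the response difference they turned for Ebi3 (-0.101 with TPM, -0.0160 to 0.107 with 1 library left out), Il12a (-0.0737 with TPM, -0.0216 to 0.192), Tnf (-0.138 to 0.0101) and Il6 (-0.434 to 0.0696). With a pseudocount of 5 the anti-IgM changes of Tnf (0.91) and Il12a (-0.98) fell under a size of 1. Il10 lost its genotype call with no filter (adjusted p = 0.116), without the trend (0.0542) and with robust eBayes (0.0558). Tgfb1 gained one with a minimum of 5 FPKM (adjusted p = 0.0470) and with robust eBayes (0.0412). Across all tested genes the letters did not meet the criterion for pairing: same-letter deviations correlated at -0.02, 0.04, 0.01 and -0.12 for A to D. For some genes they did go together, since library B was highest in both genotypes for Tnf, Il10, Il6, Lyz2, Cd14 and Il1a. With the letter as a replicate block 740 genes were called, with adjusted p of 0.00511 for Tnf, 0.00629 for Lta and 0.00523 for Il10, and the SE fell from 0.347 to 0.114 for Il6 and from 0.179 to 0.0835 for Il10. Depth is unknown, so precision near 1 FPKM, as for Il6, could not be stated.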
